A study of Mus musculus with 2 samples.

Results

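Id, Hes and Hey genes encode helix–loop–helix proteins that hold progenitor cells back from differentiation. The group described here was fixed by gene name as *Id1*, *Id2*, *Id3*, *Id4*, *Hes1*, *Hes5*, *Hes6*, *Hey1*, *Hey2* and *Heyl*. All 10 were found among the 23951 gene symbols that both RNA-seq tables held, 1 row per gene and library, and all 10 were among the 14199 symbols that reached 1 FPKM in either library. FPKM is a fragment count scaled to transcript length and library depth. The libraries came from optic nerve at P12, 1 from control mice (Tcf7l2 c/+ with OLig1-cre) and 1 from Tcf7l2 cKO mice (Tcf7l2 c/c with OLig1-cre, called *Tcf7l2*ΔHMG by the study). Both genotypes, kept on a mixed strain background, carried the Cre driver, which is active in the oligodendrocyte (OL) lineage, and at least 1 conditional allele, so that neither library was wild type. Recombination removes the exon for the DNA-binding HMG box in frame, and the control keeps 1 intact allele. The number of mice behind each library was not given in the sources used here. With 1 library per genotype no difference below has a replicate check, and no test between genotypes was possible.

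The members work on 2 linked circuits. Id proteins have the helix–loop–helix but no basic DNA-binding region, so they pair with E proteins (Tcf3, Tcf4, Tcf12) and keep them from pairing with activators such as Olig1/2; BMP signalling through Smads is a classical inducer of Id genes. Hes and Hey proteins bind DNA and are the classical direct targets of Notch through the nuclear factor Rbpj, and Hes proteins recruit Groucho corepressors. Hes6 is the exception in its family, since it opposes Hes1 and is known as a promoter of differentiation. In the OL lineage, BMP/Id and Notch/Hes signalling are both known as brakes on the step from OL precursor cell (OPC) to myelinating OL.

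Promoters are shown for 3 members. *Hes5* and *Hes6* had the lowest log2 ratios in the comparison below, and *Id2* the highest of the members for which a promoter was found. The intervals of *Hes5* overlapped between the libraries, and *Id2* did not differ by more than 1.5-fold. They are the 250 bases before the RefSeq transcription start, taken from the GRCm38.p6 table, 5′ to 3′ on the strand of the gene. Capitals mark TTCCCA or its reverse complement TGGGAA, the core bound by Rbpj, and GGCGCC, a GC-rich element bound by Smads.
*Hes5* (chr4:154960673-154960922, plus strand): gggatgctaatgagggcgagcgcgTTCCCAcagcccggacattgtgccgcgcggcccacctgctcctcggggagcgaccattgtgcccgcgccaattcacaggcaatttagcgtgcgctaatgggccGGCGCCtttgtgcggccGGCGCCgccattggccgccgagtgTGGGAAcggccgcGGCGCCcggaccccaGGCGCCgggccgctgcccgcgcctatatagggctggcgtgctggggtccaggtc
*Hes6* (chr1:91413223-91413472, minus strand): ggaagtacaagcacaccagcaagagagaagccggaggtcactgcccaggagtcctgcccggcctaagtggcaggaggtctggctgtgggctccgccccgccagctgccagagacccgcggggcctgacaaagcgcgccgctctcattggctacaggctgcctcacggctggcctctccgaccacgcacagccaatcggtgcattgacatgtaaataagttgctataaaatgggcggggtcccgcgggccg
*Id2* (chr12:25096093-25096342, minus strand): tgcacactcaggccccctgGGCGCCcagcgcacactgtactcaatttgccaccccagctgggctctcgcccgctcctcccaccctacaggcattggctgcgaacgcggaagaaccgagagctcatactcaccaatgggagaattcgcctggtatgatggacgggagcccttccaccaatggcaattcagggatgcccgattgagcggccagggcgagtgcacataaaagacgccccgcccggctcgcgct

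The *Hes5* window held 2 Rbpj cores, at −226 and −82 from the start on opposite strands, and 4 GGCGCC elements between −123 and −54, with no overlap between the 2 kinds. The *Id2* window held 1 GGCGCC element, at −231, and no Rbpj core. The *Hes6* window held neither. It is the window of the RefSeq start at 91413222, and the window of the other RefSeq start of *Hes6*, at 91414038, held neither as well. Windows were found for 6 members (*Hes5*, *Hes6*, *Hey2*, *Id2*, *Id3*, *Id4*), and none was found for *Id1*, *Hes1*, *Hey1* and *Heyl*. Of these 6 genes, 3 had an Rbpj core (*Hes5*, *Hey2*, *Id4*). This was 3 of their 7 windows, compared with 21.6% of the 32851 windows of this length in the table. A GGCGCC was found for 3 genes (*Hes5*, *Id2*, *Id4*), or 3 of 7 windows, compared with 9.59%. The TCF/LEF core TCAAAG, the letters to which Tcf7l2 binds, was in none of the 7 windows of these 6 genes on either strand, compared with 13.8% of all windows. The general bHLH element CANNTG was found for 4 of the 6 genes, or 5 of 7 windows, compared with 66.2% of all windows. CACNAG, the N-box of Hes proteins, was found for 2 genes, or 2 of 7 windows, compared with 36.7%. These matches describe letters in a short window and were not tested as binding sites.

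At P12 the Id genes were by far the more abundant members in both libraries. Summed over the family, they stood at 481 FPKM in control nerve and 559 FPKM in the *Tcf7l2*ΔHMG library, which was 88.4% and 92.3% of the FPKM of all 10 members. The 3 Hes genes summed to 38.7 FPKM in control nerve and 22.7 FPKM in mutant nerve, and the 3 Hey genes to 24.5 and 23.8 FPKM. The ratio of the Id sum to the Hes sum, which does not depend on how a library is scaled, was 12.4 in control nerve and 24.6 in mutant nerve. In whole nerve, fewer cells of a type cannot be told apart from less RNA per cell.

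**Figure D1:**
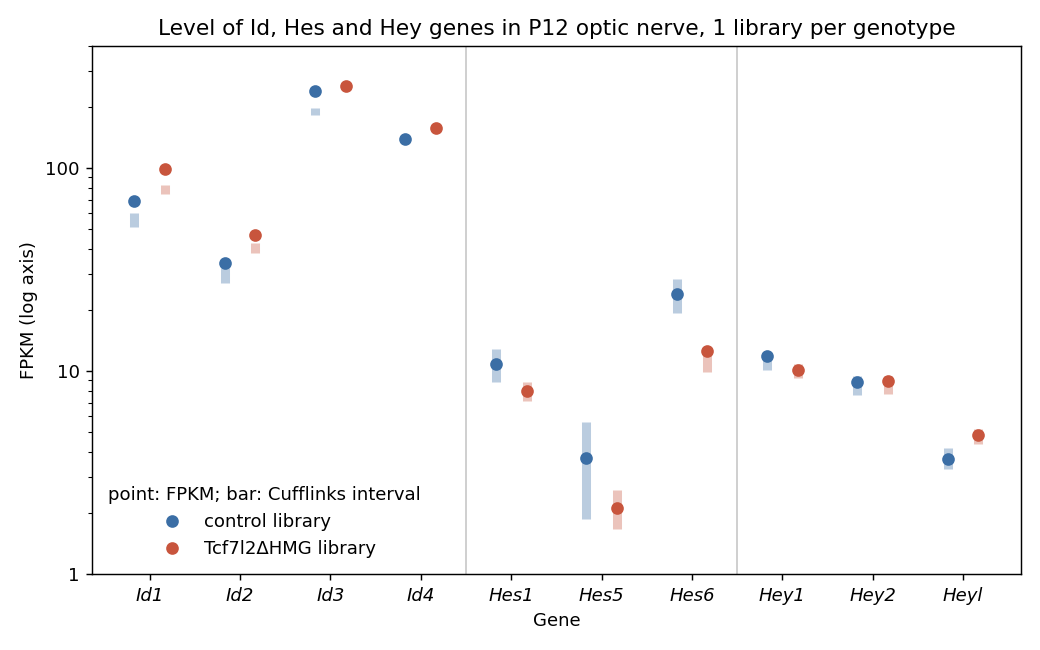
FPKM of the 10 members (log axis) in the control library (blue) and the *Tcf7l2*ΔHMG library (red), 1 library each, with points for the FPKM and bars for the Cufflinks interval of the same row. The Id genes lie between 34.1 and 255 FPKM and all Hes and Hey genes between 2.13 and 24.1 FPKM, and for *Id1*, *Id2*, *Id3* (control) and *Hes6* (mutant) the point lies above its bar.

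The order of the levels was *Id3*, *Id4*, *Id1*, *Id2*, *Hes6* and *Hey1* from the highest down in both libraries. Below these, the control had *Hes1*, *Hey2*, *Hes5* and *Heyl*, and the mutant *Hey2*, *Hes1*, *Heyl* and *Hes5*. Cufflinks gives an interval for each FPKM, which describes the estimate within its library and says nothing of how animals vary. By these intervals, neighbours that could not be put in order in the control were *Id2* and *Hes6*, *Hey1* and *Hes1*, *Hes1* and *Hey2*, and *Hes5* and *Heyl*. In the mutant they were *Hes6* and *Hey1*, *Hey1* and *Hey2*, and *Hey2* and *Hes1*, whereas *Hes5*, at the bottom, was separated from *Heyl* by a factor of 2.27. *Id3* exceeded 97.8% of the genes kept by the filter in control nerve and *Id4* exceeded 96.2%, while *Heyl* and *Hes5* exceeded 23.9% and 24.1%. From the highest to the lowest member the levels spanned a factor of 64.4 in control nerve and 120 in mutant nerve.

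On the scale of the deposited FPKM, every Id gene was higher and every Hes gene lower in the *Tcf7l2*ΔHMG library and the Hey genes lay on both sides, whereas all 10 members were lower once all rows, unnamed ones included, were set to the same sum per library. That rescaling moved the median log2 ratio of all genes by −0.65 and the calls from 2185 higher and 1210 lower genes to 640 and 7398. Unnamed rows held 70.7% of the FPKM in the control library and 80.7% in the mutant library. With only named rows set to the same sum, every Id gene was still above 0 (*Id3* at 0.02) and every Hes gene below 0. Directions below refer to the deposited scale. No member was more than 1.5-fold higher (15.4% of all genes tested were), and 2 of 10 were more than 1.5-fold lower, *Hes5* and *Hes6* (8.52% of all genes). Any difference upwards was found for 6 members and any downwards for 4, beside 54.6% and 45.4% of all genes. Log2 ratios of mutant over control were computed from FPKM plus 0.1, which understates the change of low genes. Their median was 0.33 over the Id genes, −0.79 over the Hes genes and 0.01 over the Hey genes, beside 0.05 over all genes tested. Over all 10 members the median was 0.05. The lowest Id ratio, that of *Id3*, lay 0.53 above the highest Hes ratio, that of *Hes1*, and this gap hardly depends on library scaling. Markers of myelinating OLs differed alongside, with 8 of 11 more than 1.5-fold lower and a summed level of 31970 FPKM in control nerve against 18284 in mutant nerve, and their part in the differences of the members was not tested.

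**Figure D2:**
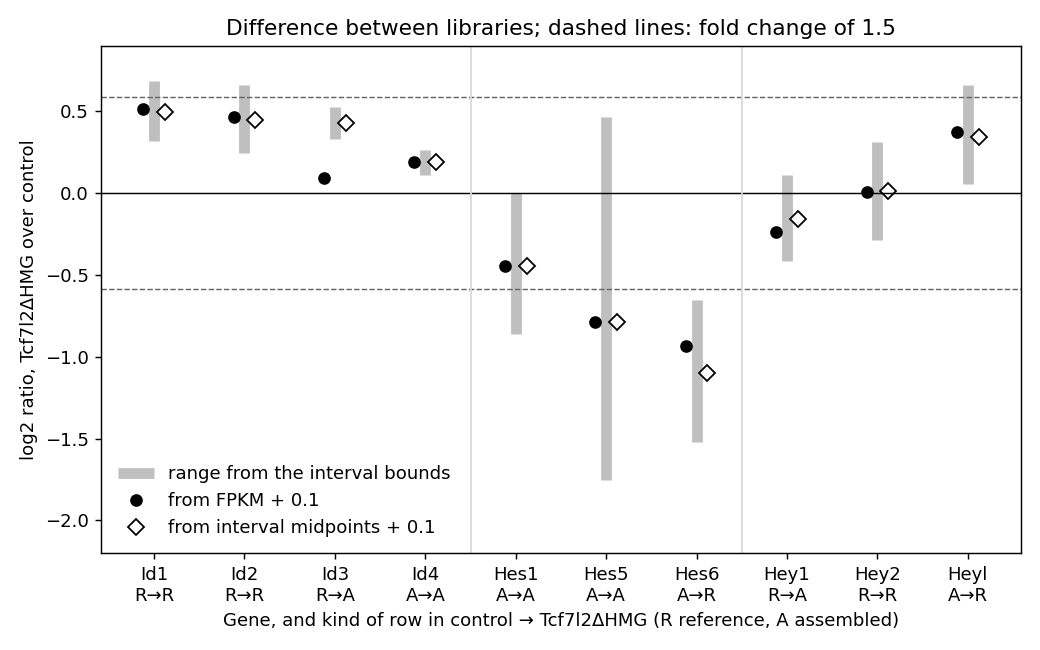
Log2 ratio of the *Tcf7l2*ΔHMG library over the control library for each member, from FPKM (filled circles) and from the midpoints of the Cufflinks intervals (open diamonds), both after adding 0.1. Grey bars give the range that the interval bounds allow, dashed lines mark a fold change of 1.5, and the letters under each gene say whether its row was a reference or an assembled one per library. For *Id3* the filled circle, at 0.09, lies below its grey bar, which runs from 0.33 to 0.53.

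*Id1*, a rapid BMP target that is also known from vascular endothelium, stood at 68.9 FPKM in control nerve and 98.5 FPKM in mutant nerve (files: chromosome 2, 152561987 to 152563146, mm9 by the submitters' processing notes, as are all positions from the files). The mutant value was 42.9% higher, a log2 ratio of 0.51, the highest of the 10 members. The bounds of the intervals, 51.5 to 59.9 in control nerve and 74.7 to 82.8 in mutant nerve, did not overlap and allowed log2 ratios from 0.32 to 0.68. Each FPKM lay above its own interval, by a similar factor in both libraries (1.24 and 1.25 relative to the midpoint). *Id1* was thus higher in mutant nerve at all values within the interval bounds, and 82.0% of the genes tested had a lower log2 ratio.

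*Id2*, known to keep OPCs from differentiating when it is in the nucleus, stood at 34.1 FPKM in control nerve and 47.1 FPKM in mutant nerve (chromosome 12, 25778664 to 25780957). The difference of 38.1% was close in size to that of *Id1*, with a log2 ratio of 0.46 and a range of 0.25 to 0.66 from the intervals (27.2 to 32.1 and 38.1 to 43.0, again below the FPKM values). For both genes the interval range reached past a fold change of 1.5, to 1.61 for *Id1* and 1.58 for *Id2*, although the FPKM ratio itself did not. *Id1* and *Id2* were thus the pair of Id genes with the largest differences, and each came from the same kind of row in both libraries.

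*Id4*, known from OPCs and astrocytes as an inhibitor of the OL fate, stood at 139.0 FPKM in control nerve and 158 FPKM in mutant nerve (chromosome 13, 48356494 to 48361392 in the control). The intervals, 136 to 144 and 156 to 164, were narrow at this level and did not overlap. The difference was small all the same, with a log2 ratio of 0.19 and a range of 0.11 to 0.27. *Id4* therefore lay 0.28 below *Id2* on the log2 scale.

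*Id3*, the most abundant member, stood at 239 FPKM in control nerve and 255 FPKM in mutant nerve (chromosome 4, 135699737 to 135701307), a log2 ratio of 0.09. Its control FPKM lay outside its own interval of 184 to 198, by a factor of 1.25 above the midpoint, whereas its mutant FPKM lay inside its interval of 249 to 265. From the midpoints the log2 ratio of *Id3* was 0.43, similar to those of *Id1* (0.50) and *Id2* (0.45). The size of the *Id3* difference therefore depended on which of the 2 deposited quantities was read, from 1.07-fold with the FPKM to 1.35-fold with the midpoint, whereas its direction did not.

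An FPKM outside its own interval was more frequent in 1 of 2 kinds of row. The tables hold reference rows, labelled by the gene symbol, and assembled rows, labelled by a Cufflinks assembly number. Among named rows with an FPKM of at least 1, the FPKM lay outside its interval in 21.0% of reference rows and 2.90% of assembled rows of the control, and in 24.2% and 4.59% of those of the mutant. Most reference rows thus held their FPKM, among them those of *Hey1* in the control, *Hey2* in both libraries and *Heyl* in the mutant. *Id3* and *Hey1* were reference rows in control nerve and assembled rows in mutant nerve, and *Hes6* and *Heyl* were the opposite. Over all 1871 genes with the pattern of *Id3* the median log2 ratio was 0.20, and 25.7% were higher by a fold change above 1.5. Over the 1463 genes with the pattern of *Hes6* it was −0.09, and 14.4% were lower by that much. *Id1*, *Id2* and *Hey2* were reference rows in both libraries (median of 3500 such genes 0.08), and *Id4*, *Hes1* and *Hes5* were assembled in both (median of 7346 genes 0.02). The part of the row kind in the values of *Id3*, *Hey1*, *Hes6* and *Heyl* was not tested.

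*Hes6*, the antagonist of Hes1, had the largest difference of all members. It stood at 24.1 FPKM in control nerve and 12.6 FPKM in mutant nerve (chromosome 1, 93308060 to 93309799), 47.8% lower, or 1.91-fold. The log2 ratio was −0.93 from FPKM and −1.10 from the midpoints, and 4.13% of the genes tested had a lower ratio than −0.93. Its intervals, 19.4 to 28.5 and 9.92 to 12.4, were clear of each other, the mutant FPKM lay just above its own, and the bounds allowed log2 ratios from −1.52 to −0.65. *Hes6* was thus the only member that was lower by more than 1.5-fold with intervals that did not overlap, a combination met by 7.39% of all genes tested. No member met it in the upward direction, compared with 13.6% of genes.

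*Hes5*, a Notch target of neural progenitors and astroglia, stood at 3.75 FPKM in control nerve and 2.13 FPKM in mutant nerve (chromosome 4, 154335032 to 154336480 in the control), 43.2% lower, with a log2 ratio of −0.79. The control interval was wide, 1.87 to 5.63, and overlapped the mutant interval of 1.67 to 2.58. The bounds therefore allowed anything from a log2 ratio of −1.75 to 0.47. The intervals thus did not separate the *Hes5* levels of the libraries.

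*Hes1*, the ubiquitous Notch effector, stood at 10.9 FPKM in control nerve and 7.97 FPKM in mutant nerve (chromosome 16, 30065417 to 30067882 in the control), 26.7% lower, with a log2 ratio of −0.44. Its intervals, 8.84 to 12.9 and 7.11 to 8.85, touched by a margin of less than 0.01 FPKM, so the bounds just reached a ratio of 1. *Hes6* exceeded *Hes1* by a factor of 2.22 in control nerve and 1.58 in mutant nerve. Within the family, *Hes6* supplied 62.2% of the Hes FPKM in control nerve and 55.5% in mutant nerve.

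The Hey genes, repressors best known from arteries, heart and perivascular cells, had the family sum that differed least, with members on both sides. *Hey1* stood at 11.9 FPKM in control nerve and 10.1 FPKM in mutant nerve (chromosome 3, 8663359 to 8667038, log2 ratio −0.23), with overlapping intervals of 10.1 to 12.4 and 9.28 to 10.9. *Hey2* stood at 8.88 and 8.93 FPKM (chromosome 10, 30552165 to 30562589, log2 ratio 0.01), and its intervals of 7.61 to 9.46 and 7.75 to 9.45 almost coincided. For *Hey2* the bounds allowed log2 ratios from −0.29 to 0.31, so that mutant levels from 0.819 to 1.24 times the control level lay within the bounds. *Heyl* stood at 3.71 and 4.84 FPKM (chromosome 4, 122910799 to 122927113), 30.2% higher in mutant nerve with a log2 ratio of 0.37. Its intervals of 3.29 to 4.20 and 4.36 to 5.20 did not overlap, and *Heyl* was the only Hey gene for which this held. Its row was an assembled one in control nerve and a reference one in mutant nerve.

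Counted by intervals alone, 5 of 10 members were higher in mutant nerve without overlap (all 4 Id genes and *Heyl*), compared with 30.0% of genes tested. One member, *Hes6*, was lower without overlap, 1 of 10 compared with 22.3%. Intervals are narrow at the level of the Id family, so that small differences separate there.

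The circuits around the members were described by 12 lists with 86 genes, of which 74 passed the filter. Of these, 16 were higher and 4 lower at 1.5-fold, or 21.6% and 5.41%, beside 15.4% and 8.52% of all genes. The 16 included the 6 BMP ligands tested, *Notch4*, whose row was merged with a neighbour in mutant nerve, and *Hes3*, whose intervals overlapped. The BMP ligands stood out. All 6 ligands tested were higher, with a median log2 ratio of 0.92 (2 further genes, *Bmp3* and *Gdf2*, were below the filter). *Bmp4* stood at 38.0 FPKM in control nerve and 68.6 FPKM in mutant nerve, *Bmp7* at 42.4 and 83.9 FPKM, and the related *Gdf10* at 31.1 and 90.5 FPKM. The intervals of control and mutant were clear of each other for all 6 ligands. *Bmp6* (23.0 and 45.5 FPKM), *Bmp5* (2.75 and 4.38 FPKM) and *Bmp2* (1.12 and 1.86 FPKM) completed the list. Meningeal fibroblast markers were higher alongside, 8 of 8 with 4 above 1.5-fold. Their summed levels were 7828 and 15553 FPKM, most of it from *Ptgds* (6009 and 12780 FPKM). The part of these markers in the ligand levels was not tested.

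Downstream of the ligands the differences were smaller. None of the 7 BMP receptors passed 1.5-fold in either direction (median log2 ratio 0.18), and the most abundant, *Bmpr1a*, stood at 24.0 and 27.2 FPKM. Of 6 Smads, 2 were higher by more than 1.5-fold, namely *Smad6*, a feedback inhibitor induced by BMP (2.01 and 4.02 FPKM), and *Smad9* (2.20 and 3.57 FPKM). The most abundant Smad in the control, *Smad5*, stood at 13.9 and 12.9 FPKM, and *Smad4*, the most abundant in the other library, at 13.7 and 15.4 FPKM. Of 8 listed BMP antagonists 4 passed the filter, and *Bmper* alone exceeded 1.5-fold (1.23 and 1.93 FPKM), while *Chrd*, the most abundant, stood at 5.54 and 7.72 FPKM.

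**Figure D3:**
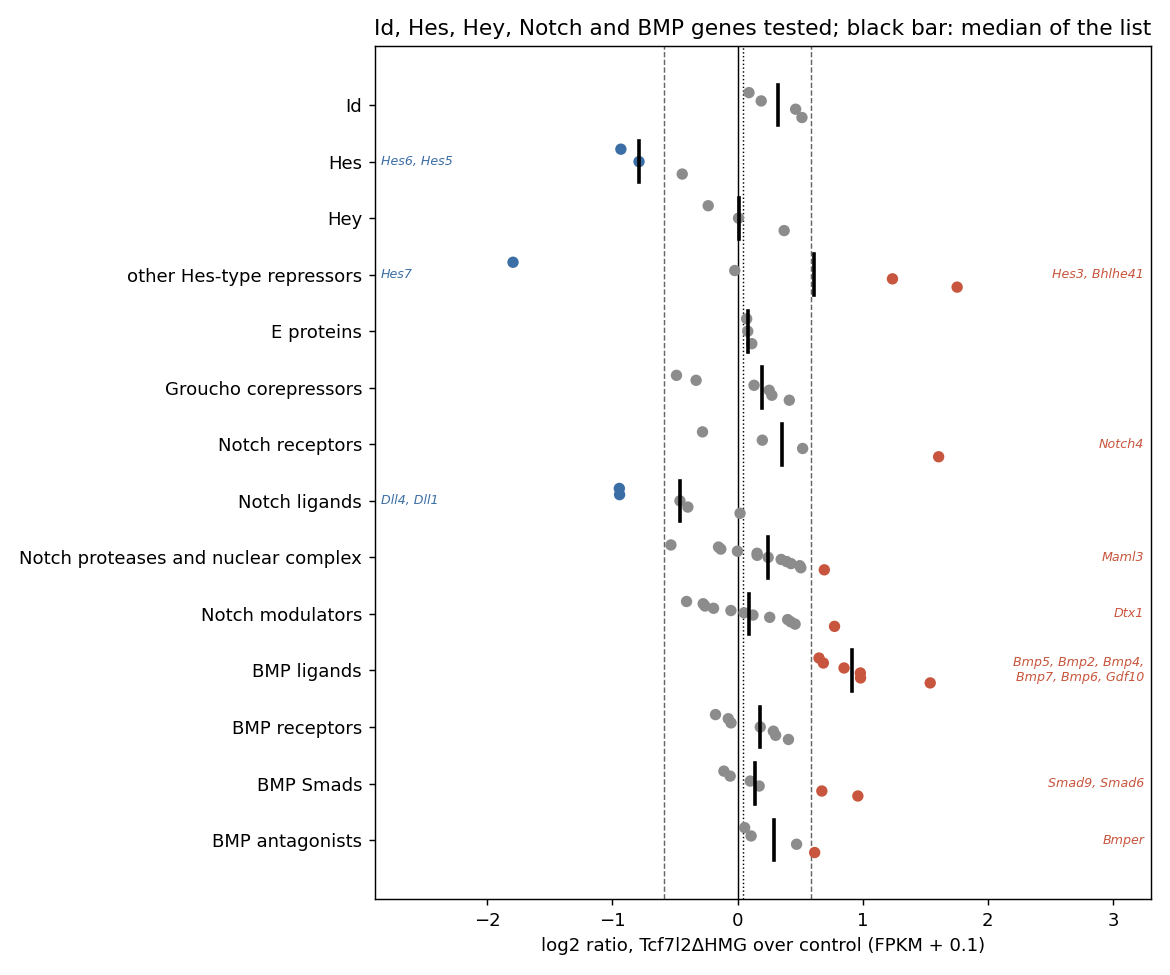
Log2 ratio of the *Tcf7l2*ΔHMG library over the control library for the tested genes of each list except the bHLH activators, 1 point per gene, with black bars at the list medians, dashed lines at a fold change of 1.5 and a dotted line at the median of all genes, 0.05. All 6 BMP ligands lie to the right of the dashed line and 4 of 5 Notch ligands lie below 0, and genes past the dashed lines are named at the margins (the row of *Notch4* is merged with a neighbour in mutant nerve).

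The Notch ligands lay on the other side. Of 5 tested, 4 were lower in mutant nerve, with a median log2 ratio of −0.46, and 2 were lower by more than 1.5-fold. *Dll1* stood at 3.08 FPKM in control nerve and 1.55 FPKM in mutant nerve, and *Dll4*, the ligand of sprouting endothelium, at 2.96 and 1.49 FPKM, with clear intervals for each. *Jag1*, the most abundant, stood at 4.60 and 4.67 FPKM. The receptors were mixed. The most abundant, *Notch2*, stood at 20.6 and 29.5 FPKM and *Notch1* at 11.8 and 13.6 FPKM, whereas *Notch3* stood at 4.76 and 3.90 FPKM. The row of *Notch4* read 3.10 FPKM in control nerve and 9.64 FPKM in mutant nerve, but the mutant row was merged with the neighbouring gene *Gpsm3*, so no level of *Notch4* alone can be given there.

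Between receptor and target, 1 of 13 genes for the Notch-cleaving proteases and the nuclear complex passed 1.5-fold, the coactivator *Maml3* (1.11 and 1.86 FPKM). *Rbpj*, through which Notch reaches Hes and Hey promoters, stood at 20.7 FPKM in both libraries, and the protease subunit *Psenen*, the most abundant of the list, at 92.2 and 103 FPKM. Of 12 modulators, *Dtx1* was higher by more than 1.5-fold (8.79 and 15.1 FPKM), and *Dtx3*, the most abundant, stood at 47.2 and 56.4 FPKM. *Nrarp*, a feedback target of Notch like the Hes genes, stood at 3.36 and 2.79 FPKM.

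Among the partners of the members the E proteins differed little, whereas some bHLH activators differed more. The 3 E proteins had log2 ratios between 0.07 and 0.11, with the most abundant, *Tcf12*, at 44.4 and 48.0 FPKM. (*Tcf4* is here the E protein gene and not *Tcf7l2*, which is also known as Tcf4.) None of 6 Groucho genes passed 1.5-fold, and *Aes*, the most abundant, stood at 198 and 240 FPKM. Among the bHLH activators, *Olig1* was more than 1.5-fold lower, at 273 and 115 FPKM, and *Atoh8*, a known BMP target, was more than 1.5-fold higher, at 11.3 and 18.4 FPKM. Of the 6 other Hes-type repressor genes 4 were tested, and they split. *Bhlhe41* stood at 11.6 and 39.3 FPKM with clear intervals, *Bhlhe40* at 22.7 and 22.3 FPKM, *Hes3* at 1.36 and 3.35 FPKM with overlapping intervals, and *Hes7* at 2.19 and 0.56 FPKM from rows of different kinds.

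Cell type markers moved between the libraries as well. All 11 markers of myelinating OLs found were lower, 8 of them by more than 1.5-fold, and their summed FPKM was 31970 in control nerve and 18284 in mutant nerve, with *Mbp* the highest. OPC markers, 5 of 7 lower, summed to 406 and 340 FPKM (median log2 ratio −0.24, 1 of 7 lower by more than 1.5-fold). *Gpr17* was the highest at 235 and 156 FPKM, and its fall was larger than that of the sum, so the lower sum rested on it. *Pdgfra*, at 35.9 and 33.6 FPKM, came from a row merged with a neighbour in at least 1 library and had a mutant interval of 32.0 to 161. Astrocyte markers, 7 of 8 higher, summed to 5447 and 6428 FPKM, led by *Gfap*, and microglia markers, 7 of 8 higher, to 242 and 319 FPKM, led by *C1qb*. Endothelial markers, 6 of 8 lower, summed to 156 and 127 FPKM, led by *Cldn5* at 64.1 and 43.7 FPKM. Pericyte and smooth muscle markers, 5 of 8 higher, summed to 120 and 150 FPKM, with *Tagln* listed at 0 in control nerve and at 35.3 FPKM in mutant nerve and *Rgs5*, the most abundant, at 63.0 and 40.5 FPKM. The higher sum rested on *Tagln*, since the other 7 markers summed to 120 and 114 FPKM. Meningeal fibroblast markers, 8 of 8 higher, summed to 7828 and 15553 FPKM, led by *Ptgds* at 6009 and 12780 FPKM. Neuron markers were low, at 40.0 and 62.0 FPKM in sum with 6 of 7 higher and *Nefl* leading the control at 13.0 and 15.4 FPKM, and red blood cell markers were higher throughout. *Hba-a1* and *Hba-a2* share merged rows, and with these counted once the 4 values summed to 163 and 403 FPKM. *Tagln* apart, none of the markers found in both tables was at 0 in either library, and their part in the differences of the Id, Hes and Hey genes was not tested.

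**Figure D4:**
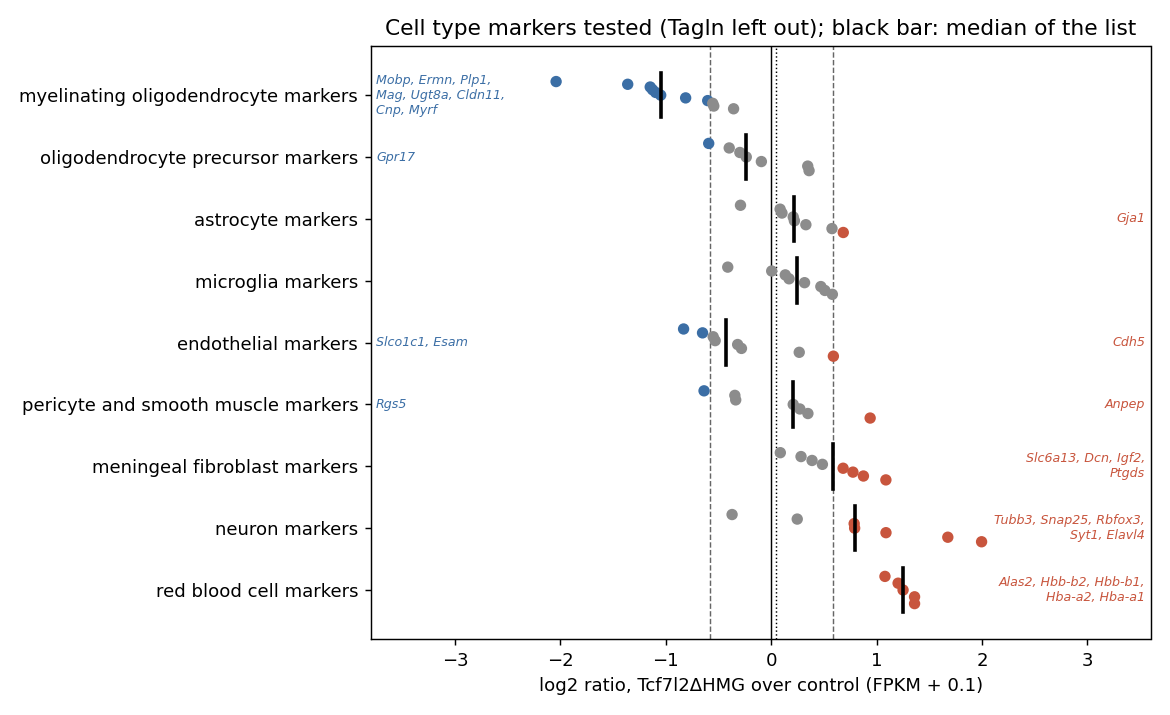
Log2 ratio of the *Tcf7l2*ΔHMG library over the control library for the tested markers of 9 cell types, 1 point per gene, with black bars at the list medians and dashed lines at a fold change of 1.5. *Tagln*, listed at 0 in the control, is left out of the plot and of the plotted median, and *Hba-a1* and *Hba-a2* are drawn from the same merged rows. All 11 myelinating OL markers lie below 0, and all meningeal fibroblast and red blood cell markers lie above 0.

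The deposited tables held 23583 named rows in control nerve and 23535 in mutant nerve. Depth, read from the interval bounds of short unnamed rows, was 27624000 and 39938000 fragments (the smallest depths that match, of which whole multiples would match too), so that 3 fragments on a transcript of 1 kb equal 0.11 and 0.075 FPKM. *Tcf7l2* itself stood at 17.8 FPKM in control nerve and 14.6 FPKM in mutant nerve, which checks nothing about the deletion, since the recombined allele loses 1 exon in frame and is still transcribed. Within 5000 bases of the members the assemblies held 1 unnamed row, at 1.60 FPKM and 4971 bases from *Hes6* in the control, so no member had its fragments divided with an unnamed row over the same span.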

How the data were processed

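RNA of P12 optic nerve was sequenced from control and *Tcf7l2*ΔHMG mice, 1 library each. The authors mapped reads with TopHat at default settings and deposited FPKM from Cufflinks with the bounds of its interval and a status per row. The submitters' processing notes name mm9; tool versions and the level of the interval are not given in the sources used here. Comma-merged names were split, FPKM was summed per symbol, and symbols with status OK in each table and at least 1 FPKM somewhere were compared as log2 of FPKM plus 0.1. Calls used a fold change above 1.5; with 1 library per genotype there were no tests. Depth was the smallest number of fragments that made interval bounds of unnamed rows under 100 bases whole multiples of 1 fragment (largest deviation 0.0016). Named are the 10 members, *Tcf7l2*, genes past 1.5-fold and the most abundant gene of each list in the control. *Rbpj*, *Nrarp*, *Notch1*, *Notch3*, *Smad4* and *Pdgfra* fall outside this rule and were named after their values were seen. One listed gene counts in the totals but is not reported here. Members and lists were chosen with earlier results of these data known. Interval midpoints, and marker sums without *Tagln* or with merged globin rows counted once, were added after seeing the data. The calls were run on simulated data with planted changes larger than the cut, which does not test the effect of row kind, scaling or variation between animals. Promoters came from the RefSeq table of GRCm38.p6, and no coordinates were joined between builds. Python 3.11.15, numpy 2.4.6, pandas 2.3.3 and matplotlib 3.10.9 were used.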

Additional observations from a re-analysis of the deposited data

How the results depend on the processing

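The choice of scale moved the values most. Rescaling all rows to a sum of 1000000 per library, unnamed rows included, shifted the median log2 ratio of all genes by −0.65 and changed the split from 2185 higher and 1210 lower genes to 640 and 7398. The median of the members went to −0.62, 5 members were then lower by more than 1.5-fold, and none was above 0 (*Id1* at −0.16, *Id3* at −0.58). A rescaling multiplies all genes of a library alike, so ratios relative to the median of all genes are fixed by construction apart from the pseudocount (*Id1* at 0.45 to 0.47). The count of lower members was 1 with an FPKM of at least 5 in 1 library, which left 8 members and removed *Hes5*, 1 when intervals also had to be clear, and 0 with a fold change above 2 (975 genes higher and 522 lower), whereas it was 2 under the remaining settings other than the rescaling of all rows. No member was higher by more than 1.5-fold under any of the 14 settings. Of 90 recomputed member ratios, 10 moved by more than the spread their intervals give, 9 of them under the rescaling of all rows and 1 for *Id3* from midpoints (0.43). For *Hes1*, *Hes5*, *Hey1* and *Hey2* the intervals of both libraries overlapped. No paired analysis was possible because each genotype had 1 library.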
